A study of Rattus norvegicus with 8 samples.

Results

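The miR-200 family was followed in the renal cortex of male rats. Its members were taken from the array design as the rat probes named miR-200a, miR-200b, miR-200c, miR-141 or miR-429, with either arm of the hairpin. This gave 9 of the 758 miRNAs on the array. The Mir200b/Mir200a/Mir429 gene cluster contributed 5 of them (rno-miR-200b-3p, rno-miR-200b-5p, rno-miR-200a-3p, rno-miR-200a-5p and rno-miR-429) and the Mir200c/Mir141 gene cluster contributed 4 (rno-miR-200c-3p, rno-miR-200c-5p, rno-miR-141-3p and rno-miR-141-5p).

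The samples were 8 one-colour arrays, 2 in each of 4 groups, each loaded with 100 ng of cortical RNA. SHAM rats were sham-operated and ate chow with 0.50% sodium. UNX rats were nephrectomised, ate the same chow and received subcutaneous soybean oil. DOCA rats were nephrectomised, ate chow with 1.5% sodium and were injected under the skin 2 times a week with 8 mg/kg of deoxycorticosterone acetate, which acts on the mineralocorticoid receptor, with weekly intravenous vehicle from week 2. DOCA-EVs rats were treated in the same way, except that the weekly intravenous injection held extracellular vesicles from adipose mesenchymal cells (ASC-EVs). Nephrectomy was therefore shared by UNX, DOCA and DOCA-EVs, and the protocol places the collection of cortex at week 9, while the sample descriptions speak of 8 weeks. The labels do not give strain or age, and they do not state whether an array holds 1 rat or a pool, so a p-value measures the spread between these arrays, which may be technical.

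The miR-200 miRNAs are made in epithelial cells, including those of the kidney tubule. They repress ZEB1 and ZEB2, transcription factors that switch off E-cadherin, and in turn ZEB1 represses both miR-200 gene clusters. A miRNA binds its targets mainly through its seed, the bases from position 2 to 8. miR-200b, miR-200c and miR-429 carry one seed and miR-200a and miR-141 another, so each gene cluster produces miRNAs of both seeds. The 3p arm of these hairpins is the guide strand, which is loaded into the silencing complex, and the 5p arm is the passenger strand.

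Of the Mir200c/Mir141 guides, miR-200c-3p carries the main difference reported here, and miR-141-3p passed in no comparison. Of the 4 passenger strands, 3 were too dim to be tested. Mature sequences are shown for both these guides and for the 4 passenger strands. They come from RefSeq on the GRCr8 assembly, where 6 of the 9 members matched, with miR-200a-3p, miR-200b-3p and miR-429 unmatched. Capitals mark the seed.
rno-miR-200c-3p: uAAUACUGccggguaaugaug
rno-miR-141-3p: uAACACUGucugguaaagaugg
rno-miR-200c-5p: cGUCUUACccagcaguguuug
rno-miR-141-5p: uCCAUCUUccagugcaguguug
rno-miR-200b-5p: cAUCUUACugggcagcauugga
rno-miR-200a-5p: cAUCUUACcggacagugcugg
The guides miR-200c-3p (chr4:159209969-159209989, minus strand) and miR-141-3p (chr4:159209540-159209561, minus strand) differed in the seed by U4C, counted from 1 at the 5′ end. Over their first 21 bases they differed at 4 positions in all, written U4C, C9U, G11U and U17A with the base of miR-200c-3p first. The passengers miR-200b-5p (chr5:171931548-171931569, minus strand) and miR-200a-5p (chr5:171930770-171930790, minus strand) shared the whole seed and differed at 5 later positions. Other members are similar in sequence too, and the share of signal that a probe takes from a near-identical relative was not tested.

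On GRCr8 the hairpins of miR-200b, miR-200a and miR-429 lie within 1908 bases of chromosome 5. This stretch overlaps the protein-coding gene Ttll10 and the long non-coding RNA gene LOC106182250, with the strand not considered. The hairpins of miR-200c and miR-141 lie within 509 bases of chromosome 4, in no protein-coding gene, with Phb2 and Ptpn6 as the nearest ones. A further miRNA is annotated on the opposite strand over each cluster, miR-3548 over miR-200a and miR-3575 over miR-200c. Both were on the array and were detected on 0 of 8 arrays. Exons and introns were not resolved in the table used.

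Of the 9 members, 6 entered the comparisons, for which both arrays of 1 or more groups had to carry the scanner software's detection flag. All 5 guides and miR-200b-5p met this. miR-141-5p was detected on 2 arrays (UNX replicate 1 and DOCA-EVs replicate 1), and miR-200a-5p and miR-200c-5p on none, the latter lying at the lower limit of the signal on all 8 arrays. These 3 passenger strands were not tested. A stricter flag, called above background here, required at least 0.5 of the spots of 1 probe to be well above background. miR-200b-3p, miR-200a-3p, miR-429 and miR-141-3p met it on all 8 arrays, miR-200c-3p on 4 and miR-200b-5p on 4. No spot of a member was saturated.

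The arrays detected 208 to 264 miRNAs. DOCA replicate 2 and DOCA-EVs replicate 2 are called weakly hybridised here, because their hybridisation control (dmr_3) read 1028 and 1136, while it read 2200 to 2402 elsewhere. All 5 kidney tubule miRNAs fixed as markers were detected on all 8 arrays. The smooth muscle list had 1 of 3 members detected on no array and the leukocyte list 1 of 5. The replicate number equalled the row of the slide and the group its column, so an effect of the column and one of the group cannot be told apart. The number of arrays limits the precision, with a median 95% confidence interval of 0.47 log2 to either side for 2 arrays against 2. Group levels are means ± SD (n = 2) of the log2 signal after scaling, fold changes are log2 ± SE from limma over 242 miRNAs, and a call needs an adjusted p under 0.05. Levels of different miRNAs are not set against each other, since their probes differ. In bulk cortex, fewer epithelial cells and less miRNA per cell cannot be told apart.

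**Figure D1:**
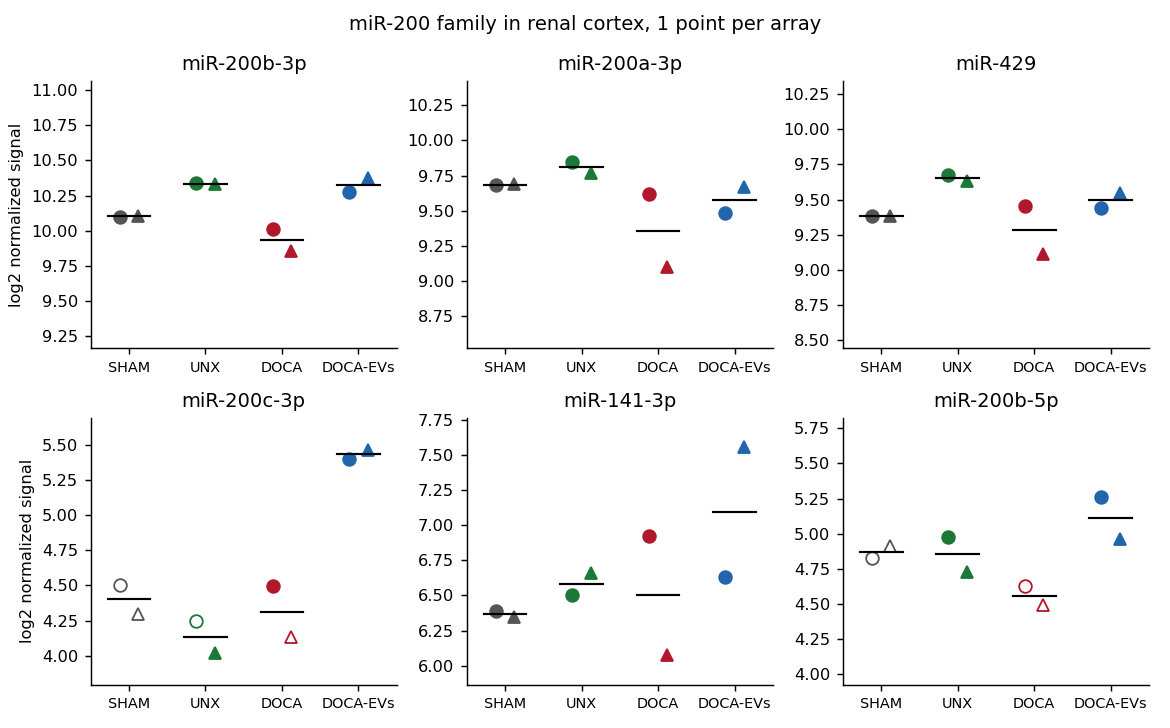
Log2 normalized signal (vertical axis, the same height of 1.9 log2 in each panel but a different range) of the 6 tested miR-200 members in the 4 groups. Circles are replicate 1, triangles replicate 2, bars the group mean, and open symbols arrays on which the miRNA was not above background. miR-200c-3p stands at 5.40 and 5.46 in DOCA-EVs and at 4.02 to 4.50 on the 6 other arrays.

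The 3 guides of the Mir200b/Mir200a/Mir429 cluster had their highest group mean in UNX and their lowest in DOCA. miR-200b-3p, a repressor of ZEB1 and ZEB2, was 10.10 and 10.11 on the SHAM arrays, 10.34 and 10.33 on the UNX arrays, 10.01 and 9.86 on the DOCA arrays and 10.27 and 10.37 on the DOCA-EVs arrays. The UNX arrays lay inside the DOCA-EVs range, and every other pair of groups was apart. Over all 242 miRNAs, 20.7% had both DOCA arrays below both UNX arrays, and 12.8% had both DOCA-EVs arrays above both DOCA arrays. For the other pairs of groups that share is not given here. miR-429, which carries the same seed as miR-200b-3p, was 9.38 on both SHAM arrays, 9.67 and 9.63 in UNX, 9.45 and 9.11 in DOCA, and 9.44 and 9.54 in DOCA-EVs. miR-200a-3p, whose seed is shared with miR-141-3p, was 9.69 on both SHAM arrays, 9.85 and 9.77 in UNX, 9.62 and 9.10 in DOCA, and 9.49 and 9.67 in DOCA-EVs. For both, DOCA replicate 2 was the lowest of all 8 arrays, and the DOCA and DOCA-EVs arrays overlapped.

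By group mean, the order for miR-200b-3p was DOCA (9.93 ± 0.11), SHAM (10.10 ± 0.0064), DOCA-EVs (10.32 ± 0.072) and UNX (10.34 ± 0.0033). The order for miR-429 was DOCA (9.28 ± 0.24), SHAM (9.38 ± 0.0022), DOCA-EVs (9.49 ± 0.071) and UNX (9.65 ± 0.030), with SHAM inside the DOCA range. For miR-200a-3p it was DOCA (9.36 ± 0.37), DOCA-EVs (9.58 ± 0.13), SHAM (9.69 ± 0.0014) and UNX (9.81 ± 0.058). Neighbours that overlapped were DOCA-EVs and UNX for miR-200b-3p, DOCA and SHAM for miR-429, and DOCA and DOCA-EVs for miR-200a-3p. The passenger miR-200b-5p, 4.82 and 4.91 in SHAM, 4.98 and 4.73 in UNX, 4.63 and 4.49 in DOCA and 5.26 and 4.96 in DOCA-EVs, was also lowest in DOCA. It was above background on the UNX and DOCA-EVs arrays and on no SHAM or DOCA array.

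Both guides of the Mir200c/Mir141 cluster had their highest group mean in DOCA-EVs, and they differed in the order of the other groups. miR-200c-3p was 4.50 and 4.30 on the SHAM arrays, 4.25 and 4.02 on the UNX arrays, 4.50 and 4.13 on the DOCA arrays, and 5.40 and 5.46 on the DOCA-EVs arrays. DOCA overlapped with both SHAM and UNX, the UNX arrays lay below the SHAM arrays, and both DOCA-EVs arrays lay above all the others. Both DOCA-EVs arrays lay above both DOCA arrays for 12.8% of all miRNAs, and the share for the other pairs is not given here. By mean the order was UNX (4.13 ± 0.16), DOCA (4.31 ± 0.26), SHAM (4.40 ± 0.15) and DOCA-EVs (5.43 ± 0.045). miR-200c-3p was above background on both DOCA-EVs arrays, 1 DOCA array, 1 UNX array and no SHAM array, and detected on every array but DOCA replicate 2. It was a dim miRNA in DOCA-EVs too, where the dimmest miRNA above background stood at 4.09 and 4.10. miR-141-3p was 6.39 and 6.35 in SHAM, 6.50 and 6.66 in UNX, 6.93 and 6.07 in DOCA, and 6.63 and 7.55 in DOCA-EVs. Its order by mean was SHAM (6.37), DOCA (6.50), UNX (6.58) and DOCA-EVs (7.09). Its replicates lay so far apart in both DOCA-salt groups (SD of 0.60 and 0.65) that these overlapped with every other group, except that both DOCA-EVs arrays lay above both SHAM arrays.

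UNX against SHAM asks what nephrectomy changed at standard sodium. Subcutaneous soybean oil is described for UNX and not for SHAM, so its effect and that of nephrectomy cannot be told apart. None of the 6 members passed in limma, where 0% of the 242 miRNAs passed, and none had an unadjusted p under 0.05, where 6.61% of all miRNAs did. miR-429 had a log2 fold change of 0.27 ± 0.15 (adjusted p = 0.63), miR-200b-3p of 0.23 ± 0.12 (adjusted p = 0.63) and miR-200a-3p of 0.12 ± 0.19 (adjusted p = 0.80). In both slide rows, each with 1 array per group, all 3 values were positive, such as 0.24 and 0.23 for miR-200b-3p. miR-200c-3p stood at −0.27 ± 0.18 (adjusted p = 0.63), a sign that turned with 4 of the other scalings. The median of the 6 members was 0.17, beside −0.12 over all 242 miRNAs. The SE in this comparison also holds the spread of the DOCA-salt arrays. For miR-200b-3p the SD was 0.0064 in SHAM and 0.0033 in UNX, but 0.11 in DOCA and 0.072 in DOCA-EVs. A value that did not pass here is thus no sign that nephrectomy left the level unchanged.

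DOCA against UNX asks what the steroid and the higher sodium changed in nephrectomised rats. Weekly intravenous vehicle is described for DOCA and not for UNX, so its effect cannot be told apart from theirs. None of the 6 members passed, where 1.65% of the 242 miRNAs did. All 3 guides of the Mir200b/Mir200a/Mir429 cluster had negative values, as had 39.3% of all miRNAs, and for each of them both DOCA arrays lay below both UNX arrays. Over all miRNAs 20.7% were apart in that direction. miR-200b-3p had a log2 fold change of −0.40 ± 0.12 (unadjusted p = 0.016, adjusted p = 0.12) and miR-429 of −0.37 ± 0.15 (unadjusted p = 0.047, adjusted p = 0.21). For miR-200a-3p the value was −0.45 ± 0.19 (adjusted p = 0.23). Thus 2 of 6 members had an unadjusted p under 0.05 with a lower level, beside 6.61% of all miRNAs. The passenger miR-200b-5p was above background on no DOCA array (adjusted p = 0.37 in limma). With DOCA arrays raised to their dimmest level above background where lower, it was 1.13-fold lower there, with the floor used. This fold is no lower limit over the settings. The fitted log2 value of miR-200b-5p moved from −0.30 to −0.15 with the higher floor and to −0.041 with normexp. Of its 4 probes, 1 lay at the lower limit of the signal on all 8 arrays and another on 4. The probes gave 0, 0.077, −1.08 and −0.20.

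In the Mir200c/Mir141 cluster, miR-200c-3p had a value of 0.18 ± 0.18 in DOCA against UNX (adjusted p = 0.68), and miR-141-3p of −0.081 ± 0.38 (adjusted p = 0.95). The 95% confidence interval of miR-141-3p reached from −0.99 to 0.83. Within the slide rows miR-141-3p gave 0.43 and −0.59, miR-200b-3p −0.32 and −0.48, miR-200a-3p −0.23 and −0.67, and miR-429 −0.22 and −0.52. Without DOCA replicate 2, a weakly hybridised array, miR-200a-3p was −0.19 and miR-429 −0.20, and without DOCA replicate 1 they were −0.71 and −0.54. Over the whole family the median was −0.33 beside 0.08 for all miRNAs. The scalings matter here, since the median of all miRNAs moved from 0.08 to −0.50 with no scaling and to −0.18 with the median of detected probes. Relative to it the family median stayed negative under every alternative run. Some of these, such as leaving out a SHAM array, could not change it. miR-200b-3p passed, lower in DOCA, with the median of detected probes (−0.66, adjusted p = 0.031), with normexp and quantile normalization (−0.36, adjusted p = 0.038) and with the software's total signal (−0.72, adjusted p = 0.046); over its 21 alternatives the adjusted p ran from 0.031 to 0.46.

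**Figure D2:**
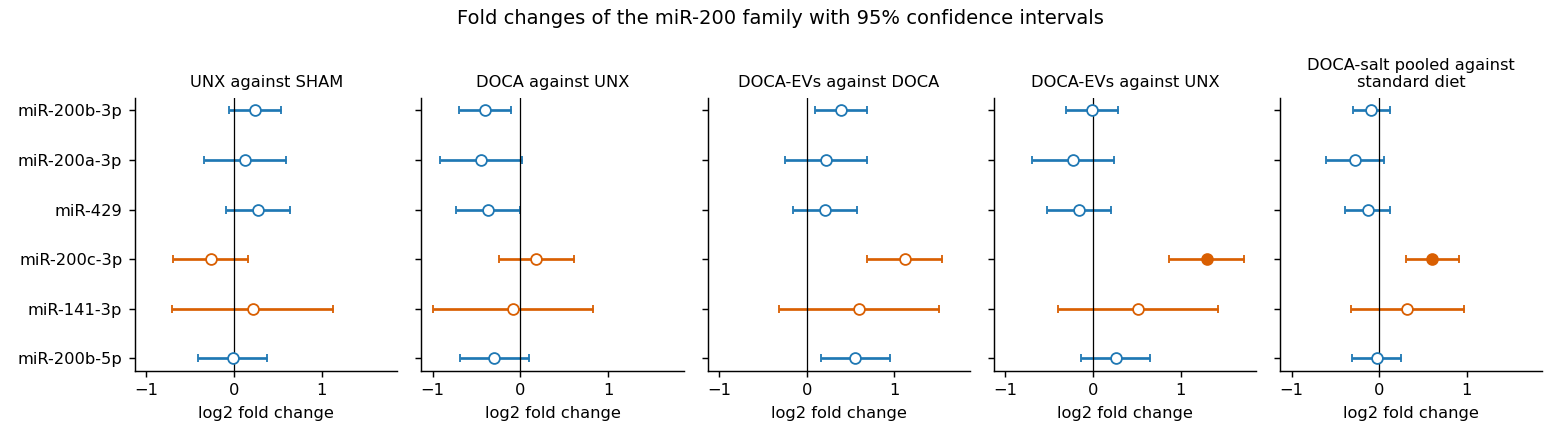
Log2 fold change (horizontal axis) of the 6 members in the 5 comparisons, with 95% confidence intervals from limma. Blue marks the Mir200b/Mir200a/Mir429 cluster and orange the Mir200c/Mir141 cluster, and filled points passed an adjusted p of 0.05. Filled points appear for miR-200c-3p alone, at 1.30 in DOCA-EVs against UNX and 0.61 in the pooled comparison.

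DOCA-EVs against DOCA addresses what the vesicles changed in DOCA-salt rats. All 6 members had positive values, beside 50.8% of all miRNAs, and none passed in limma, where 0% of all miRNAs passed. miR-200c-3p had a log2 fold change of 1.12 ± 0.18 (unadjusted p = 0.00062, adjusted p = 0.069), the smallest p of all 242 miRNAs. Its 95% confidence interval reached from 0.69 to 1.55. The fold was 2.17, or 1.76 with the DOCA array on which it was not above background set to the dimmest level above background of that array. The passenger miR-200b-5p had an unadjusted p of 0.014 and an adjusted p of 0.27 in limma. With DOCA arrays raised to their dimmest level above background where lower, it was 1.35-fold higher, with the floor used. This fold is no lower limit over the settings. The fitted log2 value of miR-200b-5p moved from 0.55 to 0.36 with the higher floor and to 0.040 with normexp. Its probes gave 0, 0.064, 1.51 and 0.43, the first of them at the lower limit of the signal on all 8 arrays. miR-200b-3p had a value of 0.39 ± 0.12 (unadjusted p = 0.019, adjusted p = 0.32). These 3 members had an unadjusted p under 0.05 with a higher level, as did 4.13% of all miRNAs. In the same 3 both DOCA-EVs arrays lay above both DOCA arrays, as for 12.8% of all miRNAs.

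The other 3 guides were nearer to 0 or more variable in DOCA-EVs against DOCA. miR-141-3p had a value of 0.59 ± 0.38 (adjusted p = 0.79), with −0.29 in slide row 1 and 1.48 in slide row 2. miR-200a-3p stood at 0.22 ± 0.19 and miR-429 at 0.21 ± 0.15, with row values of −0.13 and 0.57 for the former and −0.0079 and 0.43 for the latter. Positive values of these 3 therefore came from slide row 2, which holds both weakly hybridised arrays. For miR-200c-3p the rows gave 0.91 and 1.33, for miR-200b-3p 0.26 and 0.52, and for miR-200b-5p 0.63 and 0.47. The family median was 0.47, beside 0.00 for all miRNAs, and 0.25 above that of all miRNAs without DOCA replicate 2. With the replicate block the adjusted p of miR-200c-3p was 0.050, just above the threshold. It passed with quantile normalization (adjusted p = 0.042) and with the median of detected probes (adjusted p = 0.046), and the range over 20 alternatives was 0.042 to 0.64. Its fold change ran from 0.14 log2 with normexp and quantile normalization to 2.23 with the software's total signal. With normexp it was miR-200b-3p that passed (0.34, adjusted p = 0.0496).

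DOCA-EVs against UNX sets the vesicle-treated DOCA-salt rats against UNX rats, so vesicles, steroid, sodium and intravenous injections differ together. miR-200c-3p rose from 4.13 ± 0.16 in UNX to 5.43 ± 0.045 in DOCA-EVs, a log2 fold change of 1.30 ± 0.18 (adjusted p = 0.034), or 2.46-fold. It was the 1 member of 6 that passed, beside 2.48% of all miRNAs, and it had the smallest p of the 242. It was above background on 1 of the 2 UNX arrays; with the other UNX array at its dimmest level above background the fold was 2.35. The rows gave 1.16 and 1.44. This comparison shares its DOCA-EVs arrays with DOCA-EVs against DOCA. The guides of the other cluster had negative values that did not pass, at −0.23 ± 0.19 for miR-200a-3p, −0.16 ± 0.15 for miR-429 and −0.01 ± 0.12 for miR-200b-3p, whose 95% confidence interval reached from −0.31 to 0.29. miR-141-3p stood at 0.51 ± 0.38 and miR-200b-5p at 0.26 ± 0.16.

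The call of miR-200c-3p in DOCA-EVs against UNX was kept in 4 of 20 alternatives, which were the median of detected probes, the brightest probe, the higher floor and the replicate block (adjusted p = 0.025 to 0.035). It was lost in the 16 others, including every one that left out an array, whatever its group, and the adjusted p reached 0.38 with no scaling. The value itself stayed positive in all 20, between 0.15 with normexp and quantile normalization, where the offset of 50 exceeds the signal of either probe, and 1.43 with the software's total signal. Without the 2 weakly hybridised arrays it was 1.27. Some of the 20 could not change this value. These were array weights, the replicate block, no filter and the omission of a SHAM or DOCA array. They leave the UNX and DOCA-EVs means as they are.

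**Figure D3:**
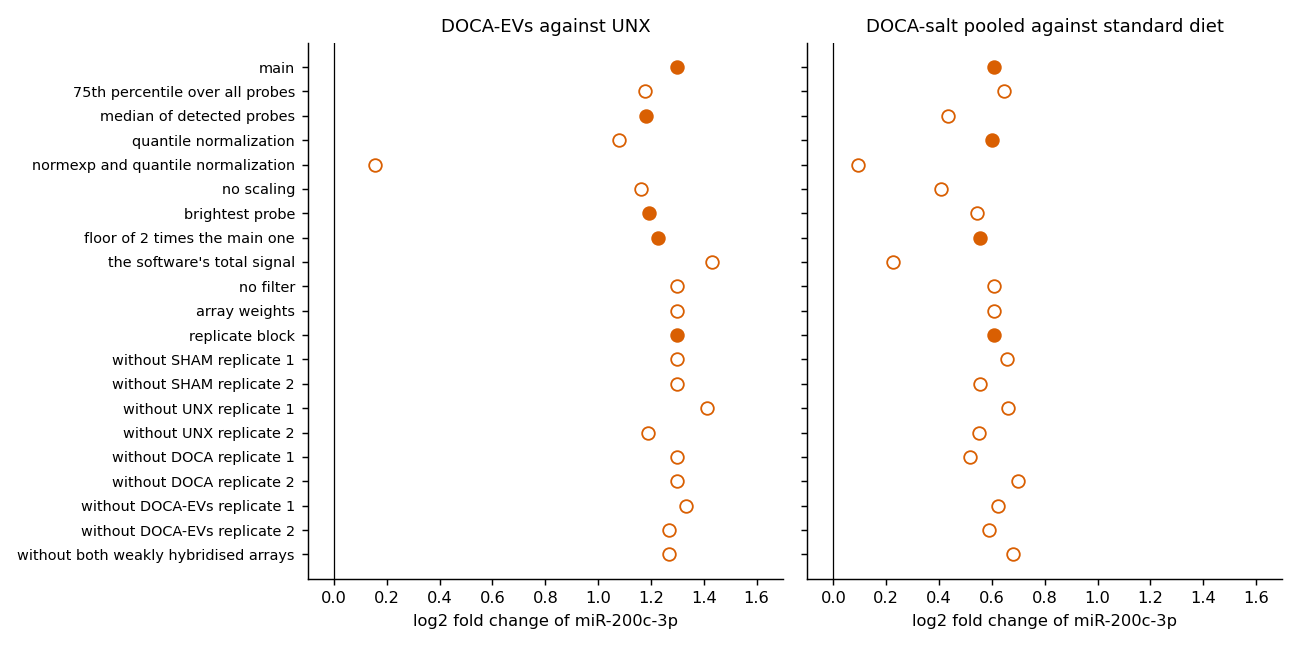
Log2 fold change of miR-200c-3p (horizontal axis) with the settings as reported (main) and under each of 20 alternatives (vertical axis), for DOCA-EVs against UNX and for both DOCA-salt groups against both standard-diet groups. Filled points had an adjusted p under 0.05. All points lie above 0, and 4 alternatives on the left and 3 on the right are filled.

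Both DOCA-salt groups together were also compared with both standard-diet groups, 4 arrays against 4. miR-200c-3p passed at 0.61 ± 0.12 (adjusted p = 0.047), the 1 member of 6 to do so, beside 6.61% of all miRNAs. The groups overlapped, since the DOCA arrays at 4.50 and 4.13 lay within the 4.02 to 4.50 of the standard-diet arrays, and the difference was carried by both DOCA-EVs arrays. With standard-diet arrays below background raised to their dimmest level above background, the fold was 1.45 in place of 1.52. This call was kept with quantile normalization, the higher floor and the replicate block, and lost in 17 of 20 alternatives (adjusted p over all 20 from 0.030 to 0.70). miR-200a-3p stood at −0.28 ± 0.14 (adjusted p = 0.29), with all 4 DOCA-salt arrays below all 4 standard-diet arrays, as for 4.13% of all miRNAs. The other 4 members lay between −0.13 for miR-429 and 0.32 for miR-141-3p, and none of them passed.

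The design carried 2 probes of 8 spots each for miR-200c-3p. On the brighter probe (A_26_P00002980) the scaled signal was 16.5 and 16.3 in SHAM, 13.8 and 12.8 in UNX, 17.4 and 13.3 in DOCA, and 29.6 and 31.2 in DOCA-EVs. On the dimmer one (A_26_P00002979) it was 6.22 and 3.31 in SHAM, 5.20 and 3.43 in UNX, 5.12 and 4.28 in DOCA, and 12.7 and 12.9 in DOCA-EVs. Both DOCA-EVs arrays were the highest on either probe. In DOCA-EVs against UNX the probes gave log2 fold changes of 1.19 and 1.60, and in DOCA-EVs against DOCA of 1.00 and 1.45. Before scaling, the brighter probe had a processed signal of 33.2 ± 3.20 (SD over 8 spots) on DOCA-EVs replicate 1 and 33.0 ± 2.67 (8 spots) on DOCA-EVs replicate 2, the weakly hybridised one.

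**Figure D4:**
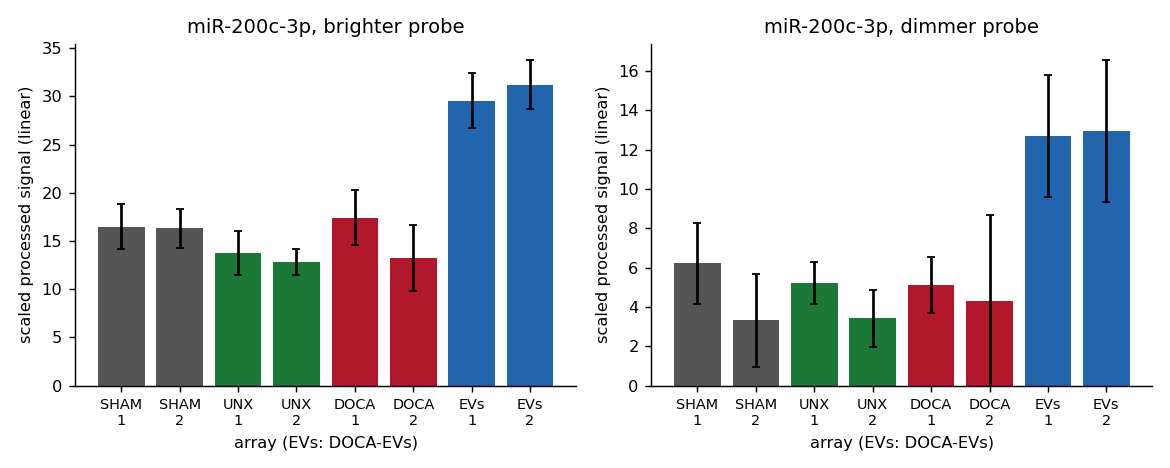
Scaled processed signal (vertical axis, linear, from 0) of both miR-200c-3p probes on each array. Bars are means over the spots used and error bars their SD over spots, which is technical spread within an array. The DOCA-EVs arrays reach 29.6 and 31.2 on the brighter probe against 12.8 to 17.4 on the 6 others, and 12.7 and 12.9 on the dimmer probe against 3.31 to 6.22.

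The gene clusters were compared through the mean level of their guide strands on each array, set against the SHAM mean. For the Mir200b/Mir200a/Mir429 cluster these were 0.23 and 0.19 on the UNX arrays, −0.029 and −0.37 on the DOCA arrays, and 0.01 and 0.14 on the DOCA-EVs arrays. For the Mir200c/Mir141 cluster they were −0.013 and −0.044 in UNX, 0.32 and −0.28 in DOCA, and 0.63 and 1.12 in DOCA-EVs. Relative to SHAM, the first cluster was higher than the second on both UNX arrays and lower on all 4 DOCA-salt arrays. The SHAM and UNX values of the second rest in part on miR-200c-3p, which was above background on no SHAM array and 1 of 2 UNX arrays. On DOCA replicate 2 both clusters were low and their gap was −0.087.

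The difference between the clusters (Mir200b/Mir200a/Mir429 minus Mir200c/Mir141) changed by 0.24 in UNX against SHAM, −0.46 in DOCA against UNX, −0.58 in DOCA-EVs against DOCA and −1.04 in DOCA-EVs against UNX. The SD of this difference between replicates, pooled over the groups, was 0.17. With quantile normalization the change in UNX against SHAM was 0.0044. With normexp that in DOCA-EVs against DOCA turned to 0.11 and that in DOCA-EVs against UNX was −0.30. With the software's total signal that in DOCA against UNX was −0.12. Slide rows 1 and 2 gave −0.60 and −0.32 for DOCA against UNX, −0.27 and −0.90 for DOCA-EVs against DOCA, and −0.86 and −1.22 for DOCA-EVs against UNX. No test was made of these differences, because they summarise chosen members. By seed, miR-200c-3p belongs with miR-200b-3p and miR-429, whose values in DOCA-EVs against UNX were −0.01 and −0.16 beside its 1.30.

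**Figure D5:**
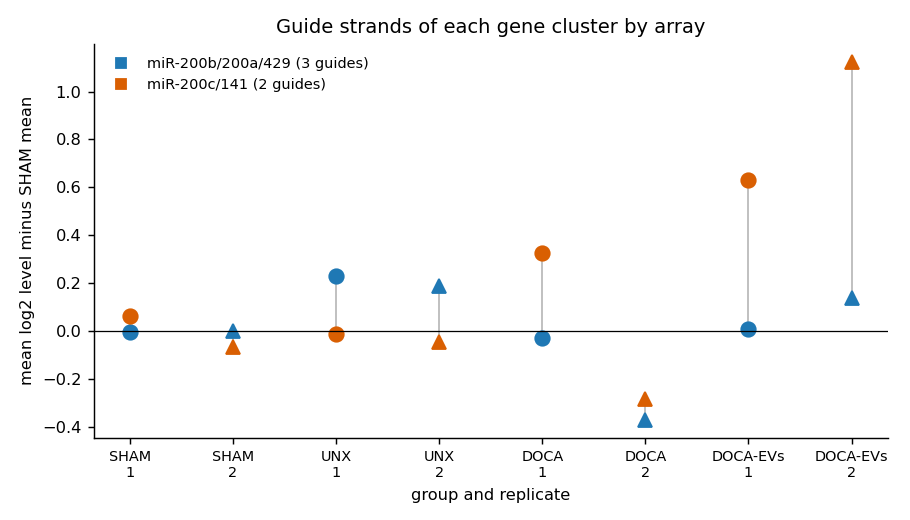
Mean log2 level of the guide strands of each gene cluster on each array, minus the SHAM mean (vertical axis). Blue is Mir200b/Mir200a/Mir429 (3 guides), orange Mir200c/Mir141 (2 guides), circles replicate 1 and triangles replicate 2, with a grey line joining the clusters of an array. The orange points reach 0.63 and 1.12 on the DOCA-EVs arrays, where the blue points lie at 0.01 and 0.14.

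Across the 8 arrays the levels of miR-429 correlated with those of miR-200a-3p (Pearson r = 0.88) and miR-200b-3p (r = 0.89), and those of miR-200b-3p with miR-200a-3p (r = 0.72). miR-200c-3p correlated with miR-141-3p at r = 0.67 and with miR-200a-3p, miR-429 and miR-200b-3p at −0.02, 0.11 and 0.41. With the passenger miR-200b-5p, which is of the other cluster, it correlated at r = 0.68. miR-141-3p correlated with miR-200b-3p, miR-429, miR-200a-3p and miR-200b-5p at 0.58, 0.52, 0.38 and 0.28. For miR-200b-5p the values were 0.69 with miR-200b-3p, 0.46 with miR-429 and 0.40 with miR-200a-3p. These values describe 8 arrays that share groups, scaling and hybridisation. Among 187 other miRNAs detected on all arrays, the pattern of miR-200b-3p was most like those of miR-10b-5p (r = 0.96), miR-10a-5p (r = 0.93) and miR-107-3p (r = 0.84). That of miR-429 was most like miR-10b-5p (r = 0.90), the endothelial miR-126a-3p (r = 0.86) and miR-186-5p (r = 0.85). The pattern of miR-200c-3p was most like those of miR-31a-5p (r = 0.94), the hypoxia-induced miR-210-3p (r = 0.90) and miR-99b-3p (r = 0.84). miR-31a-5p, for example, was 5.95 and 5.88 in DOCA-EVs and 4.51 to 5.08 on the 6 other arrays.

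Of 14 other epithelial miRNAs, 13 entered the comparisons. In DOCA-EVs against UNX, where 2.48% of all miRNAs passed, 0 of them rose and 1 fell, miR-192-5p of the proximal tubule, at −0.81 ± 0.14 (adjusted p = 0.040). In the pooled comparison, where 6.61% of all miRNAs passed, 0 rose and 3 had lower values that passed, namely miR-192-5p (−0.61 ± 0.10, adjusted p = 0.024), its cluster partner miR-194-5p (−0.59 ± 0.12, adjusted p = 0.042) and the endocrine and epithelial miR-375-3p. In DOCA against UNX, where 1.65% of all miRNAs passed, miR-375-3p was the 1 that did. It entered the comparisons through SHAM, the one group where both arrays detected it and where it was highest (4.38 and 4.46). It was above background on 1 of 8 arrays, a SHAM array, and stood at the lower limit of the signal (2.36) on both DOCA arrays, so its calls set values near that limit against each other. In DOCA-EVs against DOCA none passed, and 9 of the 13 had a positive value, beside 50.8% of all miRNAs. The lowest unadjusted p among these 9 were those of miR-375-3p (adjusted p = 0.069, with DOCA at the lower limit) and miR-10a-5p (0.34 ± 0.12, adjusted p = 0.44). The 4 negative ones were miR-192-5p (−0.16 ± 0.14), miR-194-5p (−0.17 ± 0.17), miR-204-5p (−0.19 ± 0.17) and miR-96-5p (−0.11 ± 0.17). The list's median was 0.14 there and −0.41 in DOCA against UNX. In DOCA against UNX 11 of the 13 had a negative value, beside 39.3% of all miRNAs. For 9 of the 13 both DOCA arrays lay below both UNX arrays, beside 20.7% of all miRNAs. An unadjusted p under 0.05 in limma with a lower level was found for 7, beside 6.61%. The lower values of the Mir200b/Mir200a/Mir429 guides in DOCA were thus shared by most of this list.

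Markers of some other cells moved with the groups. The summed level of the 5 leukocyte miRNAs was 8.23 on both SHAM arrays, 8.10 to 8.14 in UNX, 8.88 to 9.03 in DOCA and 8.45 to 8.72 in DOCA-EVs, so that it was highest where the Mir200b/Mir200a/Mir429 guides were lowest. All 4 of its tested members had positive values in DOCA against UNX, where 39.3% of all miRNAs had negative ones. Of these 4, 1 passed in DOCA against UNX, in DOCA-EVs against UNX and in the pooled comparison, namely miR-155-5p, a miRNA of activated leukocytes. Over all miRNAs 1.65%, 2.48% and 6.61% passed in these comparisons. The mean of miR-155-5p was 3.90 in UNX, 5.28 in DOCA (adjusted p = 0.018) and 5.10 in DOCA-EVs (adjusted p = 0.034), with an adjusted p of 0.0089 in the pooled comparison. These include both comparisons in which miR-200c-3p passed. miR-142-3p had a value of 0.96 ± 0.27 in DOCA against UNX (adjusted p = 0.10) and −0.77 ± 0.27 in DOCA-EVs against DOCA (adjusted p = 0.42). The 5 kidney tubule miRNAs summed to 12.7 in SHAM, 12.7 to 12.9 in UNX, 12.4 in DOCA and 12.4 to 12.7 in DOCA-EVs. The 3 mesenchymal miRNAs summed to 9.68 on both SHAM arrays and 9.59 to 9.68 in UNX. On replicates 1 and 2 they summed to 9.85 and 10.7 in DOCA and to 9.76 and 10.6 in DOCA-EVs. The high value of either group was thus that of its weakly hybridised array. Of these miRNAs, miR-199a-3p stood at 0.51 ± 0.31 in DOCA against UNX (adjusted p = 0.44). The erythrocyte miR-451-5p (−0.97 ± 0.55) and miR-486 (0.12 ± 0.67) did not pass in DOCA-EVs against UNX, where miR-155-5p did. Nor did the endothelial miR-126a-3p (−0.15 ± 0.16) or the smooth muscle miR-145-5p (0.01 ± 0.14). The smooth muscle miR-143-3p stood at −0.38 ± 0.15 there (unadjusted p = 0.047, adjusted p = 0.36 in limma). The erythrocyte list summed to 8.16 to 8.23 in SHAM, 7.93 to 8.37 in UNX, 6.87 to 8.76 in DOCA and 7.24 to 7.29 in DOCA-EVs. The part of these cells in the miR-200 values was not tested.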

How the data were processed

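The arrays lay on 1 slide of design 070154 and, per the file headers, the authors extracted them with Feature Extraction 11.5.1.1 (protocol miRNA_1105_Oct12). The deposited processed signal, raw spot and background medians and total signal per miRNA are intensity values, not normalized between arrays; the deposited value table equals the processed signal (largest difference 0). Spots with outlier flags were dropped and the rest averaged per probe. Signals were divided by the array's 75th percentile over the 271 probes above background on all arrays, floored at 2.57 (the mean SD of the negative controls), summed per miRNA and put on the log2 scale. limma 3.58.1 in R 4.3.3 fitted 1 mean per group to 242 miRNAs (4 residual and 2.18 prior degrees of freedom, two-sided, Benjamini-Hochberg over the 242), after a test on simulated data. Where no array of the dimmer group was above background, its arrays were raised to their dimmest miRNA above background where lower. The fold given is the one after this step, with the floor used. Every family member is named, together with the 3 miRNAs most like each of miR-200b-3p, miR-200c-3p and miR-429, and fixed members of the other lists. Members, lists and tests were chosen with earlier results of these data known. The replicate numbers pair the arrays: deviations from the group means correlated between same-numbered arrays in all 6 pairs of groups (r = 0.24 to 0.56 over 242 miRNAs), and the number equals the slide row. This pairing was left out of the main fit and entered only the replicate block. Alternatives covered scaling, background correction, floor, probe summary, filter, array weights, the replicate block and each array left out.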

Additional observations from a re-analysis of the deposited data

How the results depend on the processing

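Of 625 values of members under alternatives, 552 kept their direction and their side of the threshold, 33 lost a call (all of miR-200c-3p), 6 gained one and 34 turned sign. Some alternatives could not change a value, such as leaving out an array of a group outside the comparison. Part of the kept directions was therefore fixed in advance. Normexp on the median signals and the software's total signal were chosen after seeing the data. Normexp on mean signals was not run, since that column was not found in the files used here. With 1 array left out, a group of 1 is assumed to vary like the others; the family then had 0 members past the threshold in every comparison (lowest and highest 0). The miRNAs past the threshold in DOCA-EVs against UNX numbered 6 with all arrays, 5 without DOCA-EVs replicate 1 and 0 without any other array. Over all settings the miRNAs past the threshold numbered 0 to 20 in DOCA against UNX (4 as reported), 0 to 26 in the pooled comparison (16), 0 to 7 in DOCA-EVs against UNX (6), 0 to 5 in DOCA-EVs against DOCA (0) and 0 to 3 in UNX against SHAM (0). Signal over background limits miR-200c-3p and miR-200b-5p, each above background on 4 of 8 arrays.

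The replicate block kept both calls of miR-200c-3p (adjusted p = 0.028 in DOCA-EVs against UNX and 0.036 in the pooled comparison) and changed no other call of a member. The count of members was 0 instead of 1 in DOCA-EVs against UNX with the percentile over all probes, with quantile normalization, normexp and quantile normalization, no scaling, the total signal, detection on all 8 arrays (which drops miR-200c-3p), no filter, array weights, and without both weakly hybridised arrays. In the pooled comparison it was 0 with these settings, except quantile normalization, and also with the median of detected probes and the brightest probe. The count was 1 instead of 0 in DOCA against UNX with the median of detected probes, normexp and the total signal, each time miR-200b-3p. In DOCA-EVs against DOCA it was 1 with the median of detected probes and quantile normalization (miR-200c-3p) and 1 with normexp (miR-200b-3p). The family median minus that of all miRNAs moved from −0.41 to −0.19 in DOCA against UNX and from 0.28 to 0.11 in UNX against SHAM with normexp. In DOCA-EVs against DOCA it moved from 0.47 to 0.23 with normexp and 0.12 without both weakly hybridised arrays, with 0.24 to 0.53 when 1 array was left out. In DOCA-EVs against UNX it moved from 0.01 to 0.14 with the total signal, −0.11 with detection on all 8 arrays and −0.12 without both weakly hybridised arrays, with −0.12 to 0.072 when 1 array was left out.

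The cluster difference moved from −0.46 to −0.12 in DOCA against UNX with the total signal, and from 0.24 to 0.0044 in UNX against SHAM with quantile normalization. In DOCA-EVs against DOCA it moved from −0.58 to 0.11 with normexp, −1.12 with the total signal and −0.27 without both weakly hybridised arrays, with −0.76 to −0.40 when 1 array was left out. In DOCA-EVs against UNX it moved from −1.04 to −0.30 with normexp, −1.24 with the total signal and −0.86 without both weakly hybridised arrays, with −1.22 to −0.86 when 1 array was left out. In the pooled comparison it moved from −0.63 to −0.29 with normexp.

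Sign changes were found for 10 of 30 member values. Without both weakly hybridised arrays miR-141-3p was 0.34 in DOCA against UNX and −0.29 in DOCA-EVs against DOCA, where miR-200a-3p was −0.13 and miR-429 −0.0079, and miR-200b-5p was 0.082 in the pooled comparison. miR-200b-5p in UNX against SHAM was 0.26 with all probes, 0.016 with the median of detected probes, 0.31 with quantile normalization, 0.033 with normexp, 0.27 with no scaling, 0.062 with the brightest probe, 0.024 with the higher floor and 0.19 with the total signal. In the pooled comparison it was 0.013 with all probes, 0.049 with the brightest probe and 0.042 with the higher floor, and −0.0013 in DOCA-EVs against UNX with normexp. miR-200c-3p in DOCA against UNX was −0.077 with the median of detected probes, −0.40 with no scaling and −0.80 with the total signal. In UNX against SHAM it was 0.054 with all probes, 0.11 with quantile normalization, 0.015 with normexp and 0.060 with no scaling. The cause of these changes was not tested. With 1 array left out, miR-200b-5p ranged from −0.14 to 0.11 in UNX against SHAM and from −0.10 to 0.048 in the pooled comparison, miR-141-3p from −0.51 to 0.34 and miR-200c-3p from −0.0015 to 0.36 in DOCA against UNX, miR-200a-3p from −0.038 to 0.48 in DOCA-EVs against DOCA, and miR-200b-3p from −0.063 to 0.038 in DOCA-EVs against UNX.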
